A study of Homo sapiens with 3 samples.

Results

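miR-221 and miR-222 are related microRNAs (miRNAs) that are cut from neighbouring hairpins on the X chromosome. Every row of the deposited count tables named hsa-miR-221 or hsa-miR-222, with any arm suffix, was taken, which gave 4 mature miRNAs of the 1921 listed. They were hsa-miR-221-3p, hsa-miR-221-5p, hsa-miR-222-3p and hsa-miR-222-5p. Counts came from 3 strains of the established line HCCLM3, which was derived from human hepatocellular carcinoma (HCC) and can metastasize, all cultured in DMEM. The labels name the line HCCLM3, while the study's text derives its subclones from HCCLM3-R, a derivative that carries a red fluorescent protein, and whether these libraries come from it is not given. The strains were the parent line, labelled with low metastasis, subclone1, labelled with a higher ability to metastasize specifically to the lung, and subclone2, labelled with dual metastasis to lung and celiac lymph node. The study's own text calls its parental line highly metastatic and derives its subclones from single cells of lung and lymph node metastases in nude mice, and the labels do not tell from which of these clones subclone1 and subclone2 come. With 1 library per strain, no test between strains was possible, no p-value is given, and each ratio compares the libraries rather than the strains. In such bulk RNA fewer cells of one kind and less miRNA per cell cannot be told apart.

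A miRNA hairpin is trimmed in the nucleus and again in the cytoplasm to a short duplex, of which one strand is usually kept in the Argonaute protein while the other is degraded. The suffixes 5p and 3p name the arm of the hairpin from which a mature strand comes. Bases 2 to 8 of the loaded strand, the seed, pair with target messenger RNAs, so miRNAs with the same seed share many targets. miR-221 and miR-222 are known for high levels in HCC and several other tumours. Their known targets include the cell cycle inhibitors CDKN1B and CDKN1C and the metalloproteinase inhibitor TIMP3. None of these messenger RNAs was measured here.

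The mature sequences are shown because the seed ties the main products of both hairpins together while the remaining bases tell their reads apart. Capitals mark the seed (RefSeq, GRCh38.p14).
hsa-miR-222-3p: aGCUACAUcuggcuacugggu
hsa-miR-221-3p: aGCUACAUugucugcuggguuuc
hsa-miR-222-5p: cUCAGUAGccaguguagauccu
hsa-miR-222-3p lies at chrX:45747036-45747056, hsa-miR-221-3p at chrX:45746180-45746202 and hsa-miR-222-5p at chrX:45747073-45747094, all on the minus strand. The 3p strands of both hairpins carried the same seed, and among 2370 human mature sequences no other one had it. Their longest shared run, seed included, was 8 bases. The longest run that hsa-miR-221-3p shared with any of the listed names having a sequence was 9 bases, and it was 8 bases for hsa-miR-222-3p. The rarer arm hsa-miR-222-5p carried a seed found in no other mature sequence.

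The hairpin precursors are shown with the mature strands above in capitals. hsa-miR-221-5p had no entry in the sequence table, so its bases in the MIR221 hairpin are not marked.
MIR222: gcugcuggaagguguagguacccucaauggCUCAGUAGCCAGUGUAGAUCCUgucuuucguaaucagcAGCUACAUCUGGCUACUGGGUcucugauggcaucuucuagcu
MIR221: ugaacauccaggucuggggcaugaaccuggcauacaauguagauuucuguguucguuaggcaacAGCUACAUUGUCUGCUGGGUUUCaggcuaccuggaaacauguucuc
Each hairpin was 110 bases long. In the GRCh38 annotation (GENCODE release 29) MIR222 lies at chrX:45747015-45747124 and MIR221 at chrX:45746157-45746266, with 748 bases between them. Both lie in an intron of MIR222HG, the long non-coding host gene that is transcribed from the minus strand at chrX:45745211-45770274. The count tables themselves hold no coordinates.

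**Figure D1:**
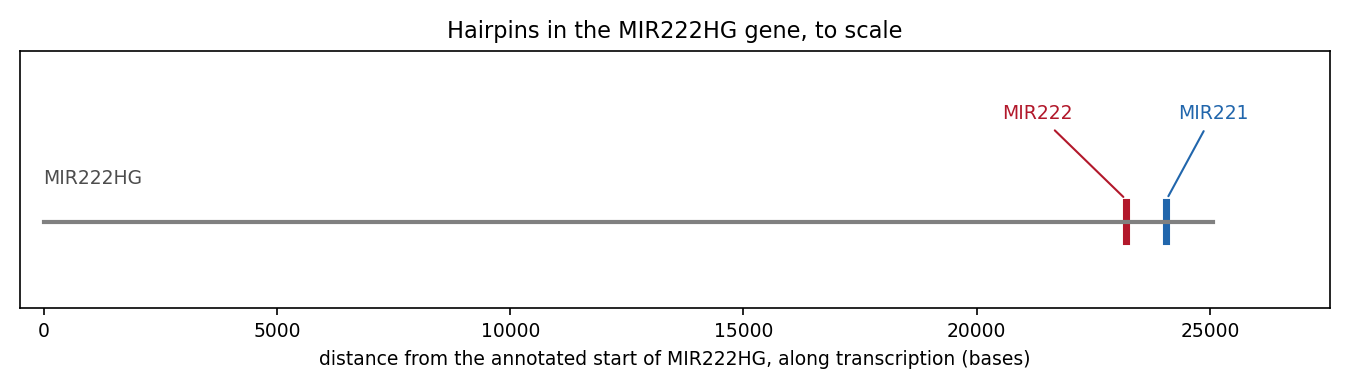
Map of MIR222HG to scale, with the distance in bases from its annotated start along transcription on the horizontal axis and the hairpins as coloured boxes. MIR222 begins 23150 bases and MIR221 24008 bases from the start, so both sit near the far end of the gene.

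The promoter window of MIR222HG is shown because both hairpins lie within this transcript. It spans chrX:45770218-45770517 on the minus strand (RefSeq, GRCh38.p14), and capitals mark the 50 bases from the RefSeq start onwards.
MIR222HG: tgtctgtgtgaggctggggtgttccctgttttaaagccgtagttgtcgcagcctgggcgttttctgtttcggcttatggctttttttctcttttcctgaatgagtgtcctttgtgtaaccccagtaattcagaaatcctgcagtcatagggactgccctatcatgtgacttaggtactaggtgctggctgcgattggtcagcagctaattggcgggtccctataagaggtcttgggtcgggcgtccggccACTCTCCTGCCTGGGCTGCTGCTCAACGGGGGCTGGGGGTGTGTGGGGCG
Motifs were searched on both strands. The letters TGANTCA, known from sites of the transcription factor AP-1, had 0 matches in this window, against 7.71% of all promoter windows of the same length with a match. The letters CACGTG, the usual E-box, had 0 matches, against 7.26% of the windows. Likewise TATAAA had 0 matches, against 11.5%. Finally CCGCCC, which is known from sites of SP1, had 0 matches, against 45%. No motif holds another. Activity of the promoter was not measured, nor whether the hairpins are transcribed from this start.

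The libraries differed in depth. The total count was 7902438 for the parent, 3570864 for subclone1 and 4568075 for subclone2, so that the parent was both the deepest library and, as described next, the one with the most miR-221/miR-222. The part of depth in this difference was not tested. Levels are given as CPM, that is counts scaled to a library total of 1000000, and 95% intervals cover counting error only. Of the miRNAs known from hepatocytes, hsa-miR-122-5p had only 53, 19 and 18 counts in the parent, subclone1 and subclone2, and hsa-miR-885-5p had 0 in each library, for which an upper limit of 3 counts (close to a one-sided 95% limit) corresponds to 0.380, 0.840 and 0.657 CPM. Other hepatocyte miRNAs were present, with 18528, 60246 and 69068 CPM of hsa-miR-192-5p and 108, 271 and 263 CPM of hsa-miR-194-5p. The 4 hepatocyte miRNAs together summed to 18642, 60522 and 69334.5 CPM, nearly all of it from hsa-miR-192-5p. This sum was higher in the libraries in which miR-221/miR-222 was lower, and its part in that difference was not tested. The 4 did not rise together, since hsa-miR-122-5p had 6.71 CPM in the parent, 5.32 CPM in subclone1 and 3.94 CPM in subclone2. The 6 listed miRNAs of blood cells summed to between 11.5 and 17.0 CPM and the 2 of endothelium to at most 2.24 CPM. The 4 of smooth muscle and fibroblasts summed to at most 4.94 CPM, and the 3 of striated muscle to between 7.59 and 23.2 CPM. hsa-miR-142-3p and hsa-miR-214-3p were at 0 in all libraries.

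First, the amount of miR-221/miR-222 in each strain was examined. In the parent, 1 in 7.22 reads came from these 4 miRNAs, compared with 1 in 10.7 in subclone1 and 1 in 13.6 in subclone2. Their summed share of the parent library was 13.9% (95% interval 13.8 to 13.9). For subclone1 the share was 9.36% (9.33 to 9.39), and for subclone2 it was 7.34% (7.31 to 7.36). The parent stood highest, and subclone2 lowest.

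Nearly all of this came from the 3p strands. hsa-miR-222-3p, the main strand of its hairpin, reached 822525 counts (parent), 245373 counts (subclone1) and 245559 counts (subclone2), or 104085, 68715 and 53755.5 CPM. The near-equal counts in the subclones stood on libraries of unequal size. hsa-miR-221-3p, the main strand of the neighbouring hairpin, had 250633, 82797 and 82363 counts, or 31716, 23187 and 18030.1 CPM. Both 3p strands therefore had the same order of libraries, with the parent highest. hsa-miR-221-5p, the minor strand of its hairpin, had 21781, 5989 and 7239 counts. These corresponded to 2756, 1677 and 1585 CPM, with the subclones close together and both below the parent.

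hsa-miR-222-5p, the minor strand of the other hairpin, was rare, with 98, 18 and 12 counts. The parent had 12.4 CPM (95% interval 10.1 to 15.1), compared with 5.04 CPM for subclone1 (2.99 to 7.97) and 2.63 CPM for subclone2 (1.36 to 4.59). The parent interval lay above both others, while those of the subclones overlapped. Small RNA kits of this kind ligate adapters to both RNA ends, a step known to favour some sequences, so that the order of different miRNAs describes reads and not molecules.

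**Figure D2:**
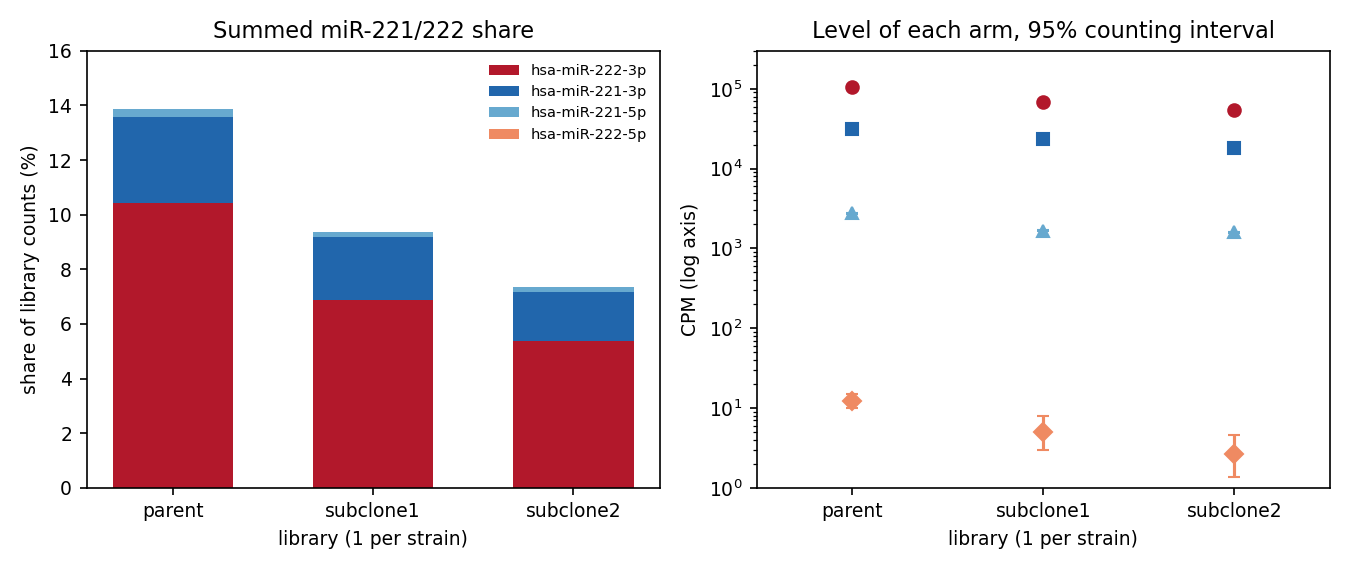
Left, share of library counts (%) held by the 4 miR-221/miR-222 strands, stacked, in each library. Right, CPM of each strand on a log axis, with bars for the exact 95% counting interval. The parent has a summed share of 13.9%, subclone1 of 9.36% and subclone2 of 7.34%, and hsa-miR-222-5p, with at most 12.4 CPM, is too rare to be seen in the left panel.

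Pooled by seed, the miR-221/miR-222 seed was second in every library, behind the let-7 seed and ahead of 1315 others. This order was made over 1576 names with a matched sequence, which held at least 94.5% of the counts of each library. The miR-221/miR-222 seed took 13.6% of the parent library, and next came the seed of miR-21 with 3.97%. In subclone1 it took 9.19%, followed by the seed of miR-192 with 6.02%. In subclone2 its lead was small, at 7.18% against 6.91% for the miR-192 seed. The distance to the following seed was thus largest in the parent.

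By single miRNAs, hsa-miR-222-3p held rank 3 (parent), 4 (subclone1) and 5 (subclone2). In the parent it lay between hsa-let-7a-5p, which had 2.07 times its count, and hsa-let-7b-5p, which had 0.576 times its count. In subclone1 it lay between hsa-let-7b-5p (1.17 times) and hsa-miR-192-5p (0.877 times), and in subclone2 between hsa-miR-192-5p (1.28 times) and hsa-let-7i-5p (0.642 times). The let-7 miRNAs are a family known for restraint of growth genes, and since they are nearly identical in sequence, their single counts are uncertain. hsa-miR-221-3p ranked 7, 8 and 12. In subclone1 its count and that of hsa-miR-320a were close, at a ratio of 0.982 (0.973 to 0.992), and in subclone2 hsa-miR-29a-3p stood just above it at 1.04 times (1.03 to 1.05). In the parent its neighbours were hsa-let-7i-5p above and hsa-let-7g-5p below, in subclone1 hsa-miR-21-5p stood above it, and in subclone2 hsa-miR-103a-3p below.

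hsa-miR-221-5p, although a minor strand, ranked 22, 25 and 25. In the parent its count could not be told from that of hsa-miR-25-3p just above it (ratio 0.995 to 1.03 by the interval). The other neighbours were hsa-miR-30d-5p below it in the parent, hsa-miR-92b-3p and hsa-miR-128 in subclone1, and hsa-miR-320b and hsa-miR-25-5p in subclone2, and all these intervals excluded 1. The rank of hsa-miR-222-5p was 174 for the parent, 236 for subclone1 and 268 for subclone2.

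In order to ask how far these strands differed in a strain with lung tropism, the ratio of subclone1 to parent was taken. All 4 strands were lower in subclone1. The summed level was 0.675 times that of the parent (95% interval 0.673 to 0.678), a log2 ratio of -0.57. hsa-miR-222-3p was 0.660 times (0.657 to 0.663) and hsa-miR-221-3p 0.731 times (0.725 to 0.737) the parent level. hsa-miR-221-5p was at 0.609 times (0.591 to 0.626). These ratios are larger than counting error, while the spread between cultures or library preparations of a strain is unknown here.

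A ratio was called when it reached 2-fold and its interval excluded 1. The kept miRNAs were those averaging 10 CPM or more over both libraries. Of the 192 kept miRNAs, 3.12% were called lower and 9.9% higher in subclone1. Among the 3 kept miR-221/miR-222 strands, 0 were called. hsa-miR-222-5p had a log2 ratio of -1.27 (-2.11 to -0.56) and met the 2-fold rule, but with a mean of 8.72 CPM it was not kept. Without a minimum level, 2.67% of 825 miRNAs were called lower. At a lower limit of 1.5-fold, hsa-miR-222-3p and hsa-miR-221-5p passed as well, beside 12% of the kept miRNAs.

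The median log2 ratio of the kept miRNAs was 0.02, against -0.60 for hsa-miR-222-3p, -0.45 for hsa-miR-221-3p and -0.72 for hsa-miR-221-5p. Lower ratios than theirs were found in 21, 34 and 12 of the 192 kept miRNAs. Low ratios of other miRNAs lay mostly at low levels. Among the 34 kept miRNAs averaging 1000 CPM or more, hsa-miR-221-5p had the lowest ratio and hsa-miR-222-3p the third lowest, with hsa-miR-25-5p (-0.61) between them. hsa-let-7g-5p (-0.57) and hsa-miR-191-5p (-0.46) came before hsa-miR-221-3p. These 3 were named after their values were seen. The highest ratio of this set was 1.70, in hsa-miR-192-5p.

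The same parent library served for the strain with dual tropism, subclone2. The summed level was 0.530 times that of the parent (0.527 to 0.532), a log2 ratio of -0.92. hsa-miR-222-3p was at 0.516 times (0.514 to 0.519), just short of a 2-fold difference. hsa-miR-221-3p was at 0.568 times (0.564 to 0.573) and hsa-miR-221-5p at 0.575 times (0.560 to 0.590). The intervals of hsa-miR-221-3p and hsa-miR-221-5p overlapped, so the arms of this hairpin could not be told apart in their ratio.

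Of the 187 kept miRNAs, 4.81% were called lower and 5.88% higher in subclone2, and again 0 of the 3 kept miR-221/miR-222 strands were called. With the library total taken without the miR-221/miR-222 reads, hsa-miR-222-3p passed 2-fold at a log2 ratio of -1.06. Leaving these reads out widens their own difference by construction. Under the other scalings tried the log2 ratio of hsa-miR-222-3p was -0.78 to -0.88, short of 2-fold. hsa-miR-222-5p, which was not kept with a mean of 7.51 CPM, had a log2 ratio of -2.19 (-3.24 to -1.37), where 4.84% of 827 miRNAs were called lower without a minimum level. At 1.5-fold the 3 kept strands passed, beside 17.6% of the kept miRNAs, a share that includes these strands. hsa-miR-222-5p passed 1.5-fold too but is not part of that share.

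Here the kept miRNAs had a median log2 ratio of -0.15. It was 0.02 under TMM scaling (trimmed mean of M values, which limits the weight of a few dominant miRNAs), a shift of 0.17. Relative to this median, hsa-miR-222-3p was lower by a log2 difference of -0.80, hsa-miR-221-3p of -0.66 and hsa-miR-221-5p of -0.64. Only 9, 14 and 15 of the 187 kept miRNAs had lower ratios than these strands. Among the 32 miRNAs of at least 1000 CPM, the lowest ratios were those of hsa-miR-222-3p (-0.95), hsa-miR-221-3p (-0.81) and hsa-miR-221-5p (-0.80), in that order. Within this set the order does not depend on library scaling. hsa-miR-192-5p again had the highest ratio, 1.90.

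**Figure D3:**
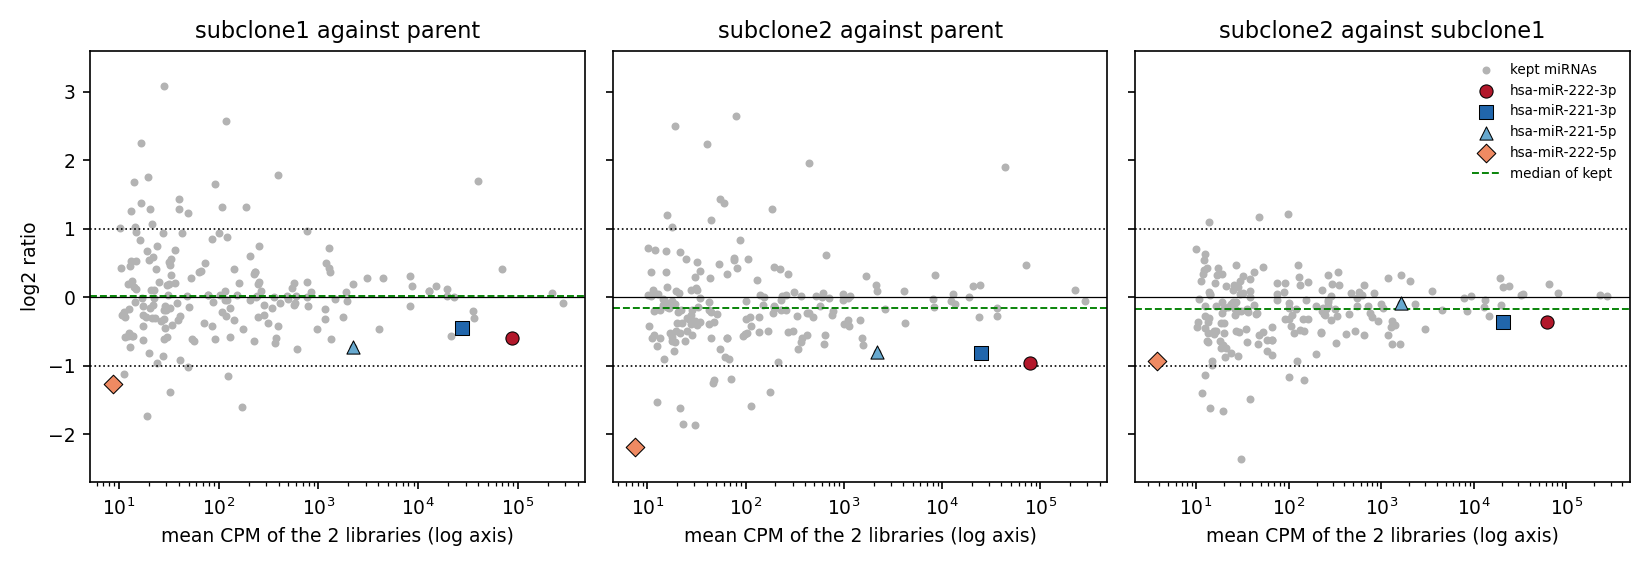
Log2 ratio of each miRNA against its mean CPM in the libraries compared (log axis), for each comparison. Grey points are kept miRNAs, coloured symbols are miR-221/miR-222 strands, dotted lines mark 2-fold and the dashed line marks the median of the kept miRNAs. In subclone2 against parent the 3 kept strands have the lowest ratios among miRNAs of at least 1000 CPM, at -0.80 to -0.95.

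Subclone2 was then set against subclone1, strains that differ in lymph node tropism by their labels. The differences were smaller than those against the parent. hsa-miR-222-3p was at 0.782 times (0.778 to 0.787) and hsa-miR-221-3p at 0.778 times (0.770 to 0.785) the subclone1 level. Their log2 ratios of -0.35 and -0.36 were -0.12 and -0.13 under TMM scaling, so their size depends on the scaling. hsa-miR-221-5p had a log2 ratio of -0.08 (-0.13 to -0.03), which turned to 0.15 under TMM scaling, so it has no direction here. hsa-miR-222-5p, with 12 against 18 counts, did not differ detectably at this depth (ratio 0.229 to 1.14 by the interval).

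Of 191 kept miRNAs 4.19% were called lower and 1.57% higher between the subclones, and 0 of the 3 kept miR-221/miR-222 strands were called. Without a minimum level 3.59% were called lower, and at 1.5-fold 16.2% of the kept miRNAs were lower, again with 0 of the 4 strands past either limit. The kept miRNAs had a median log2 ratio of -0.17, or 0.07 under TMM scaling, a shift of 0.23. Relative to the median, the log2 difference was -0.19 for hsa-miR-222-3p and -0.20 for hsa-miR-221-3p, and it was 0.08 for hsa-miR-221-5p. As many as 62 and 59 of the kept miRNAs had lower ratios than the 3p strands, so these lay well inside the range of the other miRNAs. Among those averaging 1000 CPM or more the lowest ratio was that of hsa-miR-27a-3p (-0.68) and the highest that of hsa-miR-320b (0.33).

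Since the 3p strands are so abundant, differences in them weigh on the whole library. In subclone1 the CPM lost by all miRNAs that were lower than in the parent summed to 87459, and the 4 miR-221/miR-222 strands made up 51.4% of it. hsa-miR-222-3p alone made up 40.4%, the largest loss of any miRNA, followed by hsa-let-7f-5p (named after its value was seen) and hsa-miR-221-3p. In subclone2 the sum was 100933 CPM, of which miR-221/miR-222 made up 64.6% and hsa-miR-222-3p 49.9%. Between the subclones miR-221/miR-222 made up 56.7% of 35666 CPM. These shares hold for scaling to the library total and were not taken under other scalings. Between the subclones the summed log2 ratio was -0.35, but -0.12 under TMM scaling. The largest gain against the parent was that of hsa-miR-192-5p, at 41719 CPM in subclone1 and 50540.0 CPM in subclone2, compared with differences of -35369.7 and -50329.5 CPM for hsa-miR-222-3p. As CPM must sum to the same total in every library, such gains and losses are not independent.

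Next, the ratios between the strands within a library were compared, in which library scaling cancels. For each hsa-miR-221-3p read the parent had 3.28 hsa-miR-222-3p reads (3.27 to 3.30), subclone1 2.96 (2.94 to 2.99) and subclone2 2.98 (2.96 to 3.01). The ratio in subclone1 was 0.903 times that of the parent (0.895 to 0.911) and the ratio in subclone2 0.908 times (0.9003 to 0.917). Between the subclones it was 1.01 times (0.995 to 1.02), an interval that includes 1. Thus both main strands were lower by nearly the same factor, with hsa-miR-222-3p slightly more so in both subclones.

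For comparison, the ratio was taken for other miRNAs whose hairpins lie within 10000 bases on the same strand, with the most abundant mature name that is placed on that hairpin alone. There were 27 such pairs among the hairpins with a position in the reference used, several of which share a miRNA. Not every hairpin had one, so the set is incomplete. For example, hsa-miR-93-5p and hsa-miR-183-5p are in none of these pairs. The median size of the log2 change was 0.36 for subclone1 over parent, 0.33 for subclone2 over parent and 0.18 for subclone2 over subclone1. It was 0.15, 0.14 and 0.01 for hsa-miR-222-3p over hsa-miR-221-3p (log2 changes of -0.15, -0.14 and 0.01). Of the 26 other pairs, 19 changed more in the first comparison, 19 in the second and 26 in the third. For hsa-miR-16-2-3p, hsa-miR-30c-1-3p and hsa-miR-92a-1-5p the other arm, which is shared by several hairpins, was more abundant. Without the 4 pairs that hold them, a choice made after seeing the data, 15, 16 and 22 of the remaining pairs changed more. A change of at least 1.5-fold was seen in 14.8%, 18.5% and 7.41% of the pairs and not in this one. In all 26 other pairs the rarer miRNA had fewer counts than hsa-miR-221-3p, so their counting error is larger. The largest changes were in hsa-miR-25-3p over hsa-miR-106b-5p (0.91) for subclone1, hsa-miR-502-3p over hsa-miR-362-5p (0.80) for subclone2, and hsa-miR-27b-3p over hsa-miR-23b-5p (-0.72) between the subclones. The count of hsa-miR-502-3p is uncertain, since hsa-miR-500a-3p is nearly identical to it.

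The balance of the arms in reads differed between the hairpins. Since adapter ligation favours some sequences, this difference between hairpins describes reads and not molecules. hsa-miR-221-5p made up 7.996% of the reads of its hairpin for the parent (7.89 to 8.10), 6.75% for subclone1 (6.58 to 6.91) and 8.08% for subclone2 (7.90 to 8.26). The 3p arm outnumbered the 5p arm 11.5 times (parent), 13.8 times (subclone1) and 11.4 times (subclone2). Subclone1 was thus apart from the parent by 1.20 times (1.17 to 1.24), whereas subclone2 and the parent did not differ beyond counting error (0.989 times, 0.962 to 1.02).

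The MIR222 hairpin was far more one-sided, with 1 hsa-miR-222-5p read for 8393 hsa-miR-222-3p reads in the parent (6887 to 10338). In subclone1 it was 1 for 13632 (8625 to 23001) and in subclone2 1 for 20463 (11715 to 39603). The ratio in subclone2 was 2.44 times that of the parent (1.33 to 4.88), on 98 and 12 counts of the 5p arm. In subclone1 the factor of 1.62 had an interval that includes 1 (0.976 to 2.85). Expressed between the minor arms, each hsa-miR-222-5p read was matched by 222.3 hsa-miR-221-5p reads for the parent (182 to 274), 333 for subclone1 (210.3 to 562) and 603 for subclone2 (345 to 1168). hsa-miR-222-5p was thus the strand with the most uneven levels of the 4, and also the one with the fewest counts.

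Among 41 hairpins with at least 100 summed counts for each arm, the arm ratio changed by at least 2-fold in 7.32%, 9.76% and 9.76% in these comparisons, in the order used above. MIR221 was not among them, and in subclone2 against the parent 40 hairpins changed more than it did. MIR222 was among them in subclone2 against the parent. Only those of hsa-miR-532 (log2 change 1.73) and hsa-miR-139 (1.39) changed more there than its 1.23, a value with 0.5 counts added to each arm. MIR222 met the minimum with 128 summed 5p counts, of which 98 came from the parent. Its place in comparisons with the parent is thus partly set by this filter and is no result about the hairpin. In subclone1 against the parent 11 hairpins changed more than MIR222 and 25 more than MIR221. The largest changes there were in hsa-miR-1307 (-3.001), hsa-miR-625 (-1.86) and hsa-miR-532 (1.24). Between the subclones they were in hsa-miR-1307 (2.07), hsa-miR-625 (1.41) and hsa-miR-15b (-1.24).

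**Figure D4:**
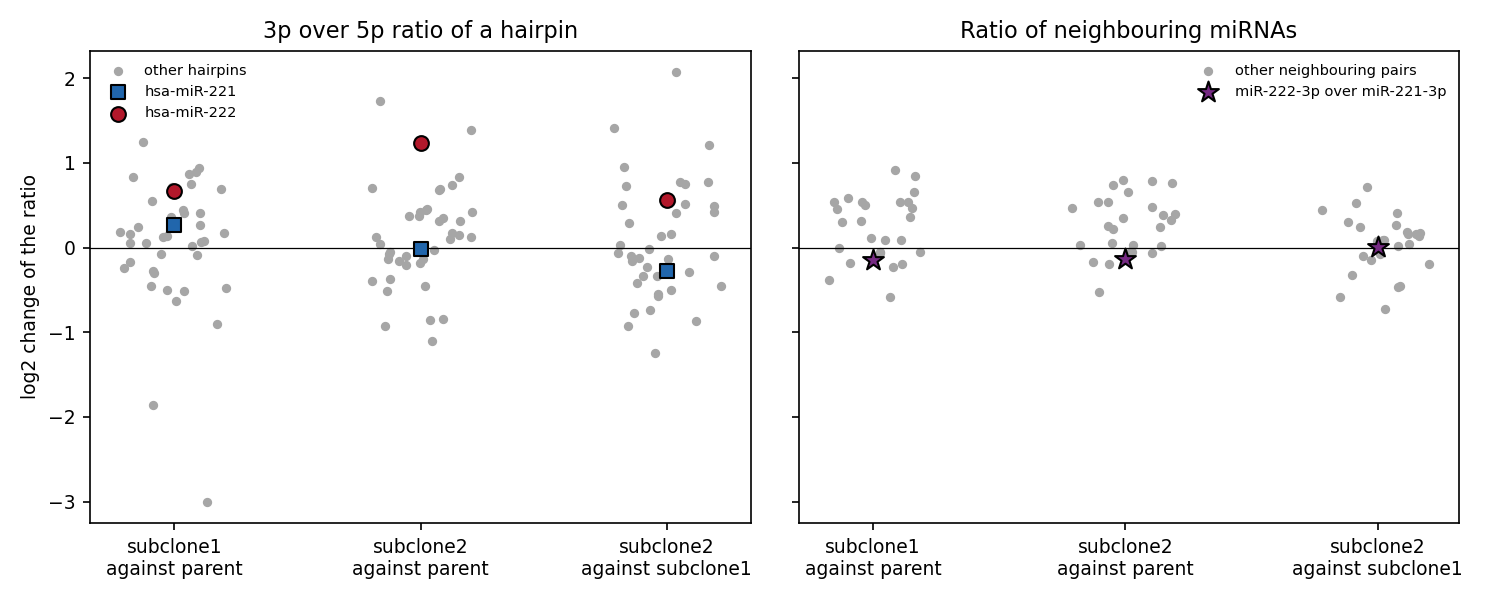
Log2 change of the ratio of 3p to 5p arm for 41 hairpins (left) and of the ratio of neighbouring miRNAs for 27 pairs (right) in each comparison, with 1 point for each hairpin or pair and horizontal scatter only for legibility. The ratio of hsa-miR-222-3p to hsa-miR-221-3p stays within -0.15 and 0.01, while the arm ratio of MIR222 reaches 1.23 in subclone2 against parent. MIR222 met the minimum of counts with 128 summed 5p counts, of which 98 came from the parent, so its place is no result about the hairpin.

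To find miRNAs with a like pattern, both log2 ratios against the parent were compared over 88 other miRNAs averaging 100 CPM or more. The measure was the Euclidean distance of these ratios, over 3 libraries only, so a near match says little. Nearest to hsa-miR-222-3p was hsa-miR-106b-5p (distance 0.03), of the MCM7 cluster, at 278 CPM (parent), 179 CPM (subclone1) and 145 CPM (subclone2). It was followed by hsa-miR-221-5p (0.19), hsa-miR-221-3p (0.20), hsa-miR-99b-5p (0.31) and hsa-miR-7-5p (0.32). Nearest to hsa-miR-221-3p was hsa-miR-222-3p (0.20), and then hsa-miR-128 (0.21), hsa-miR-106b-5p (0.22), hsa-miR-26a-5p (0.23) and hsa-miR-221-5p (0.27). hsa-miR-222-5p was below the minimum level and was not searched.

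Finally, miR-221/miR-222 was set beside lists of other miRNAs. Of 17 miRNAs known to be raised in HCC, 13 were kept. Their median log2 ratio was -0.28 in subclone1 and -0.19 in subclone2 against the parent (all kept miRNAs, 0.02 and -0.15), compared with -0.60 and -0.95 for hsa-miR-222-3p. In subclone1 1 was called higher, the hypoxia-linked hsa-miR-210, at 23.3 CPM (parent), 56.8 CPM (subclone1) and 20.4 CPM (subclone2), and 1 lower, hsa-miR-17-5p of the miR-17-92 cluster, with 66.4, 32.8 and 28.7 CPM. Of all kept miRNAs 9.9% were called higher and 3.12% lower there, so 1 of 13 is no result about the list. In subclone2 0 were called higher and 1 lower, hsa-miR-17-5p, beside 5.88% and 4.81% of all kept miRNAs. Between the subclones hsa-miR-210 was called lower, beside 4.19% of all, and the median was -0.06, against -0.17 for all. hsa-miR-21-5p, a widely raised tumour miRNA, had 39672, 32209 and 32945 CPM, with log2 ratios of -0.30 and -0.27, closer to 0 than those of the 3 kept miR-221/miR-222 strands.

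Of 14 miRNAs known to be lowered in HCC, 7 were kept and 0 were called in any comparison, and with so few members this does not differ visibly from the 1.57% to 9.9% of all kept miRNAs called in either direction. Their medians were -0.15 for subclone1 over parent, 0.01 for subclone2 over parent and 0.11 for subclone2 over subclone1, against 0.02, -0.15 and -0.17 for all kept miRNAs. All 4 other miRNAs listed with CDKN1B or CDKN1C as targets were kept. hsa-miR-152 of this list had 44.9 CPM (parent), 141 CPM (subclone1) and 63.0 CPM (subclone2), and was called higher in subclone1 against the parent and lower in subclone2 against subclone1. For this list of 4, the share called says nothing beside the 9.9% of all kept miRNAs called higher in subclone1 and the 4.19% called lower between the subclones. The list median was 0.21, -0.08 and -0.29 in the same order.

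Of the 135 other miRNAs whose hairpins all lie on the X chromosome, 19 were kept for subclone1 over parent and 18 for the other ratios. Their median log2 ratio was -0.06 for subclone1 over parent, -0.29 for subclone2 over parent and -0.37 for subclone2 over subclone1, against 0.02, -0.15 and -0.17 for all kept miRNAs. The 3 kept miR-221/miR-222 strands lay further from 0 than these medians in both comparisons with the parent. For subclone1 over parent 11 of the 19 X-linked ratios were below 0, and hsa-miR-505-5p (-0.91) was lower than all 3 strands. For subclone2 over parent 14 of the 18 were below 0, and hsa-miR-374b-5p (-0.90) and hsa-miR-374a-5p (-0.87) were lower than both miR-221 strands. These X-linked miRNAs were named after their values were seen. Between the subclones hsa-miR-222-3p (-0.35) lay close to the median of the X-linked miRNAs. Only hsa-miR-532-3p was called, higher in both subclones against the parent, at 9.62 CPM (parent), 19.6 CPM (subclone1) and 22.1 CPM (subclone2), beside 9.9% and 5.88% of all kept miRNAs called higher.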

How the data were processed

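Per the labels, Trizol RNA (1 ug) from cultured cells entered the Illumina TruSeq Small RNA kit. The authors deposited unscaled read counts per mature miRNA. The submitters' processing notes name CASAVA 1.4 and hg19. The trimming, the aligner, the miRBase release and the handling of reads matching several miRNAs are not given in the sources used here. Each file holds 1921 names without coordinates. Later names that repeated the counts of another in all libraries numbered 3, of which 0 were miR-221/miR-222. Precision is limited by counting error and by the lack of replicates, and reads carry no molecular identifiers.

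Counts were scaled to the library total. Log2 ratios had 0.5 counts added. Intervals were Clopper-Pearson (shares) or conditional binomial (ratios). For ratios of ratios the interval was exact, or normal on the log scale where all counts were at least 1000. Python 3.11.15, scipy 1.17.1 and edgeR 4.0.16 (TMM) were used. The ratio procedure was run on simulated counts with planted changes and counting error only. This checks the computation and does not cover the spread between cultures or library preparations. Hairpins were matched by RefSeq symbol (1872 names). Named miRNAs were the miR-221/miR-222 strands, their neighbours in rank, the 5 most alike in pattern, the largest changes among hairpins (3) and pairs, the lowest and highest ratios at 1000 CPM and called list members with hsa-miR-21-5p. Members and lists were chosen with earlier results of these data known.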

Additional observations from a re-analysis of the deposited data

How the results depend on the processing

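No paired analysis was possible because every strain has a single library, which also means that none could be left out. The summed miR-221/miR-222 log2 ratio stayed below 0 under every scaling tried. In subclone1 against the parent it was -0.63 with TMM factors, -0.63 with median-of-ratios size factors, -0.64 without the most abundant miRNAs (the top 10 of any library) in the total and -0.64 without the miR-221/miR-222 reads in the total. In subclone2 against the parent these were -0.75, -0.77, -0.85 and -1.02, the last past 2-fold. Between the subclones they were -0.12, -0.14, -0.21 and -0.38. A scaling factor shifts all log2 ratios of a comparison alike. Among all 4 strands, the number past the threshold was 1 in each subclone against the parent, namely hsa-miR-222-5p, which was not kept. At 1.5-fold it was 3 in subclone1 and 4 in subclone2, beside 12% and 17.6% of the kept miRNAs that were lower. It was 2 in subclone2 without the miR-221/miR-222 reads in the total. For hsa-miR-221-5p between the subclones 3 of 5 alternatives gave a value above 0 (0.06 to 0.15). Ratios within a library moved less than their intervals with 5 counts added. The 3p to 5p ratio of MIR222 was then 7986 in the parent and 14445 in subclone2, against 8393 and 20463. With 5 counts added its change in subclone2 against the parent was thus below 2-fold. With no minimum level 20.8% of 825 miRNAs had a lower ratio than hsa-miR-222-3p in subclone1 and 19.3% of 827 in subclone2, against 10.9% and 4.81%, as rare miRNAs with few counts entered. Depth limits above all what can be said of hsa-miR-222-5p, which has at most 98 counts.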
